A study of Mus musculus with 2 samples.

Results

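The 8 genes described here encode products stored in, or handled with, the secretory granules of mast cells: the chymases Cma1 and Mcpt4, the tryptases Tpsb2 and Tpsg1, the carboxypeptidase Cpa3, the histamine-forming enzyme Hdc, the granule proteoglycan serglycin (Srgn) and the protease inhibitor Serpinb1a. They were chosen as a list of symbols, and all 8 were found among the 28000 genes of the deposited gene table. The study compared cells of mouse trunk skin at E15.5 with and without HIRA, a chaperone that places histone H3.3 into chromatin. Of the libraries read here, one came from wild type (WT) skin and the other from HIRA knockout (KO) skin, so there was 1 library per genotype. The paper describes further embryos of each genotype, which were not used here. In the WT embryo both Hira alleles were intact and in the KO embryo both were floxed, and both carried a Cre transgene under the tyrosinase promoter and a Cre-dependent tdTomato reporter, on a mixed strain background close to C57BL/6J. Live tdTomato-positive cells were sorted before droplet capture, so every share of cells below is a share of sorted cells. The tyrosinase promoter is known for the melanocyte lineage, and the sorted cells also held other lineages. The labels do not name the embryos. The study's methods describe a female WT and a male KO littermate that were handled together, and the sexes read below are those of this pair. In the paper's counts, cells outside its glial, mesenchymal and melanoblast groups were a far smaller share in the other WT embryos than in this WT.

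Mast cells keep proteases, histamine and proteoglycans ready-made in granules and release them when activated. The positively charged chymases, tryptases and carboxypeptidase A3 are stored bound to the negatively charged glycosaminoglycan chains of serglycin, and the amine histamine is held in the same granules. In mice, connective tissue mast cells of the skin are known for the chymases Cma1 and Mcpt4, tryptases and Cpa3, whereas mucosal mast cells are known for Mcpt1 and Mcpt2.

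The measurements were counts of unique molecular identifiers (UMIs) from 3′ tags, with 7073939 UMIs in 1546 WT barcodes and 5049514 UMIs in 846 KO barcodes. The median was 3961 UMIs per barcode in WT and 5152.5 in KO, and the libraries shared 0 barcodes. After filtering, 1540 WT and 828 KO cells were kept, and they formed 21 clusters with 12 named classes. The 8 genes, and 12 relatives from the chymase and tryptase families, played no part in forming or naming the clusters. Levels are given as CPM, the UMIs of a gene scaled to 1000000 UMIs of a class. Intervals are 95% intervals and cover counting error only. With 1 library per genotype no test was made, cells were not treated as replicates, and each comparison between WT and KO is a comparison of these libraries.

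Hira, the targeted gene, had 82 UMIs in the WT library (11.6 CPM) and 50 UMIs in the KO library (10.0 CPM). Because 3′ tags need not cover the floxed part of the gene, these counts do not check the knockout. Xist, which is transcribed from the inactive X chromosome, had 16822 UMIs in WT and 23 in KO, and the Y-linked gene Eif2s3y had 0 UMIs in WT and 220 in KO. Genotype and sex therefore differed together between the libraries and cannot be told apart. The reporter transcript tdTomSeq had 55 UMIs in WT and 71 in KO, and 0 UMIs in mast cell-like cells of either library. That count of 0 allows up to 10.1 CPM in the WT mast cell-like cells, above the 7.79 CPM of the whole WT library.

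Mast cell-like cells were a visible class of the WT sort and nearly missing from the KO sort. They were 92 of 1540 sorted WT cells, or 5.97% (4.84 to 7.28%, Clopper-Pearson), and 3 of 828 sorted KO cells, or 0.362% (0.0748 to 1.06%). The class was named from 8 of 10 fixed mast cell markers, among them the stem cell factor receptor Kit with 116 UMIs, the IgE receptor chain Ms4a2 with 36 UMIs and the transcription factor Gata2 with 146 UMIs in the 92 WT cells. The remaining markers were near the floor there: Fcer1a, the IgE-binding receptor chain, had 0 UMIs and the receptor gene Mrgprb1 had 1 UMI. The 3 KO cells together held 3 UMIs of Kit, 3 of Gata2, 4 of Il1rl1 and 2 of Adora3, and the other 6 markers had 0, among them Ms4a2 and Cd200r3, which was in 59 of 92 WT cells. The deepest KO cell, of 6222 UMIs, had 0 UMIs of Kit and Gata2. Other myeloid cells (macrophage-like, monocyte or dendritic cell-like and neutrophil-like) numbered 153 in WT and 42 in KO. All other classes, called remaining cells here, numbered 1295 in WT and 783 in KO. Median depth in WT was 2762.5 UMIs in mast cell-like cells, 4671 in other myeloid cells and 3966 in remaining cells. In KO the same medians were 3825, 6424 and 5178 UMIs.

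Together the 8 genes took up a large share of the mast cell transcriptome. Their sum was 26150 UMIs in the WT mast cell-like cells, or 8.80% of all UMIs in these cells (8.69 to 8.91%), and 1183 UMIs or 10.3% in the 3 KO cells (9.68 to 10.9%). Per cell, the share in WT ran from 1.51% over a median of 10.0% to 18.7%, and the 3 KO cells, with a lowest value of 8.55% and a median of 9.69%, all lay inside the WT range. Outside mast cells the sum in other myeloid cells was 428 CPM (WT) and 576 CPM (KO). In remaining cells it was 139 (130 to 149) in the WT library and 27.4 CPM (22.9 to 32.6) in the KO library. Of all UMIs of the 8 genes, 95.7% in WT and 79.3% in KO lay in mast cell-like cells. The KO values of this class rest on 3 cells, and with each library clustered alone no KO cell was in it. With mast cells taken cell by cell from their markers, 2 KO cells had a summed level of 37738 CPM, against 102557 CPM for the 3. Only 1 of these 2 cells was among the 3. The other came from other myeloid cells and was the KO cell with 24 Mcpt8 UMIs described below. It had 0 UMIs of Cma1, Tpsb2 and Kit, so the 37738 CPM pools an unlike cell with 1 of the 3.

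Within the WT library all 8 genes were at least 4-fold higher in mast cell-like cells than in remaining cells, where 3.28% of the 10542 genes with enough UMIs were higher and 8.39% lower by that much. The 8 genes were also all at least 4-fold higher than in other myeloid cells, against 3.08% of 5100 genes, with 11.5% lower. With cells thinned to 2000 UMIs, 221 genes in place of 346 passed the first comparison and 78 in place of 157 the other. The median log2 ratio of the 8 was 9.36 against remaining cells and 7.39 against other myeloid cells, while the medians over all genes were -0.25 and -0.25. These contrasts describe a class formed from the same cells and are not tests. The order of summed levels in WT mast cell-like cells was Cma1, Cpa3, Tpsb2, Hdc, Srgn, Serpinb1a, Tpsg1 and Mcpt4, in UMIs from 3′ tags that were not scaled by transcript length. The intervals of Srgn (3281 to 3709 CPM) and Serpinb1a (3183 to 3605 CPM) overlapped, as did those of Tpsg1 (524 to 705 CPM) and Mcpt4 (480 to 654 CPM).

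**Figure D1:**
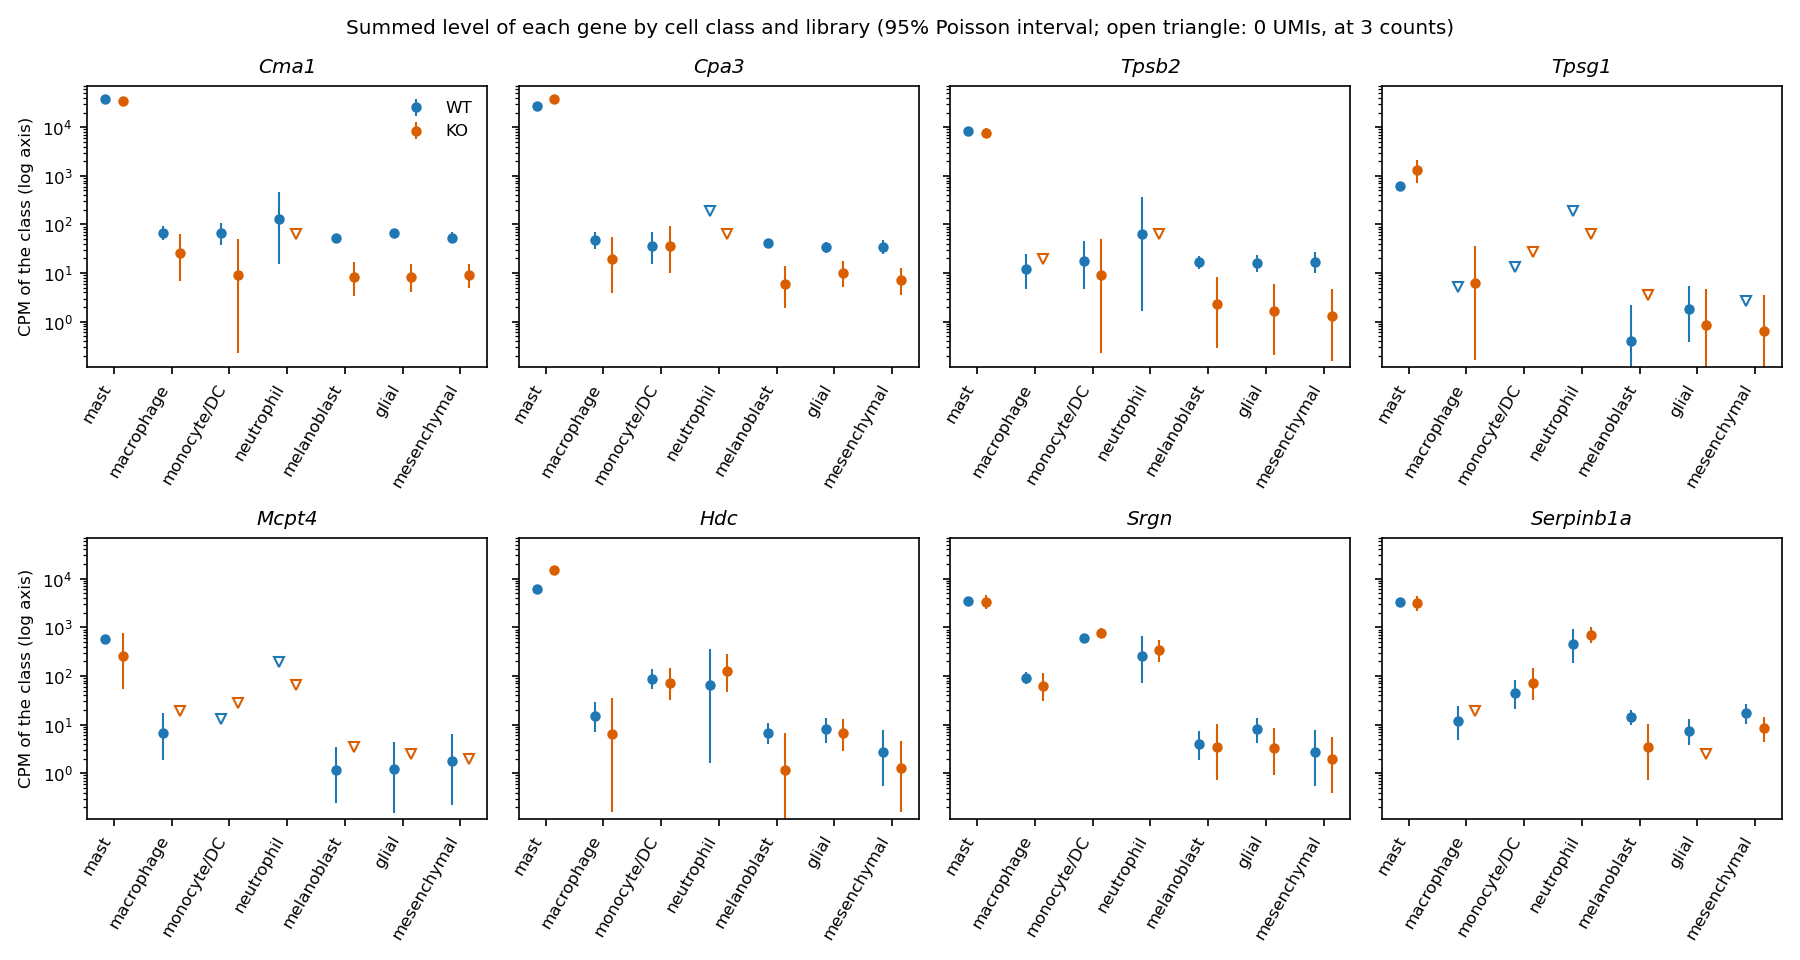
Level of each of the 8 genes (CPM, log axis) in mast cell-like cells, the 3 other myeloid classes, mesenchymal-like cells, and cells resembling glia or melanoblasts of the WT and KO libraries, with bars for 95% Poisson intervals and open triangles at 3 counts where a class had 0 UMIs. All 8 genes were highest in mast cell-like cells in both libraries, from 562 CPM (Mcpt4) to 37647 CPM (Cma1) in WT.

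Cma1 encodes a serine protease that is a chymase by sequence and in the mouse is known for elastase-like cutting after small aliphatic residues. Cma1 was the most abundant transcript of the WT mast cell-like cells, ranking 1 of 9567 detected genes, with 11187 UMIs or 37647 CPM. In the 3 KO cells it had 391 UMIs, or 33897 CPM, and ranked 2. Every mast cell-like cell had a Cma1 UMI, 92 of 92 in WT and 3 of 3 in KO, and in WT it ran from 38.1 over a median of 411 to 892 UMIs per 10000. The 3 KO cells had 753, 335 and 243 UMIs per 10000, all within that range. KO over WT gave a log2 ratio of -0.15 (-0.30 to -0.01), small next to the spread among WT cells, and 0.26 (0.07 to 0.45) without the deepest KO cell. Remaining cells had 344 Cma1 UMIs in WT (58.0 CPM) and 39 in KO (8.35 CPM).

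Mcpt4, whose product is the skin chymase of the mouse that cuts after aromatic residues, had the lowest summed level and was the least even of the 8. As a mean over WT mast cell-like cells it had 9.22 UMIs per 10000, above the 5.67 of Tpsg1. It had 167 UMIs or 562 CPM in WT mast cell-like cells and 3 UMIs or 260 CPM in KO, all 3 in the shallowest KO cell. KO over WT gave a log2 ratio of -1.11 with an interval from -3.40 to 0.46, so no difference was detectable at this depth. Only 25 of the 92 WT cells had a Mcpt4 UMI, or 27.2%, and 18.2% of 66 cells after thinning each to 2000 UMIs. Remaining cells, at a median of 3966 UMIs, had a share of 0.618%. Per 10000 UMIs the median was 0, the highest cell had 161, and the coefficient of variation over cells was 260%. The top cell alone held 28 UMIs. By contrast the coefficient of variation was 51.4% for Cma1 and 47.4% for Hdc, whose transcripts were in every cell.

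Cells with Mcpt4 were shallower and richer in the other chymase. The 25 cells with a Mcpt4 UMI had a median of 2010 UMIs and 48200 CPM of Cma1, against 3261 UMIs and 35152 CPM in the 67 cells without. Tpsb2 differed in the same direction, with 11843 CPM in cells with Mcpt4 and 7744 CPM in the others. Hdc did not follow, at 5561 and 6125 CPM. Depth moved with the split, and its part in these differences was not tested. Over the 92 cells, Mcpt4 had a Spearman correlation of -0.40 with UMIs per cell, and Cma1 one of -0.44.

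Tpsb2 encodes the mast cell tryptase beta 2, a trypsin-like enzyme stored as a tetramer. It had 2534 UMIs in WT mast cell-like cells (8528 CPM, rank 8) and 89 UMIs in KO (7716 CPM). It was found in 89 of 92 WT cells and in 3 of 3 KO cells, from 0 over a median of 78.3 to 365 UMIs per 10000 in WT. The KO cells had 222, 65.4 and 49.8 UMIs per 10000 and lay within the WT range. On the log2 scale KO differed from WT by -0.14 (-0.47 to 0.16), which includes no difference. Tpsb2 has close relatives, so reads that match more than 1 copy may be lost or placed on either, which these counts cannot show.

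Tpsg1 encodes a tryptase that is anchored in the membrane rather than freely soluble. It was far less abundant, with 181 UMIs in WT mast cell-like cells (609 CPM) and 15 UMIs in KO (1300 CPM), 12 of them in the deepest of the 3 cells. It was seen in 67 of 92 WT cells, or 72.8%, and in 66.7% of 66 cells after thinning, while remaining cells had a share of 0.309%. On the log2 scale KO was higher by 1.09 (0.23 to 1.85), resting on 2 KO cells, and without the deepest cell the ratio was -0.11 (-2.40 to 1.46). In other myeloid cells of WT it had 0 UMIs, so mast cell-like cells were at least 169-fold higher against a floor of 3 counts. Its level did not follow that of the other tryptase, with a Spearman correlation of -0.06 to Tpsb2 over the 92 cells.

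Cpa3 encodes carboxypeptidase A3, which removes single residues from the ends of peptides. It was the next most abundant transcript after Cma1, with 8249 UMIs in WT mast cell-like cells (27760 CPM) and 434 UMIs in KO (37625 CPM), where it ranked 1. All 92 WT and all 3 KO cells had it, from 14.8 over a median of 309 to 666 UMIs per 10000 in WT. The KO cells had 538, 327 and 368 UMIs per 10000, each above the WT median and below the WT maximum. On the log2 scale KO was higher by 0.44 (0.30 to 0.58). Cpa3 and Cma1 rose and fell together from cell to cell, with a Spearman correlation of 0.88 over the 92 WT cells of 1 library. Both were lower in deeper cells, with Spearman correlations to UMIs per cell of -0.30 (Cpa3) and -0.44 (Cma1). The part of depth in this was not tested.

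Hdc encodes histidine decarboxylase, the enzyme that makes histamine. It had 1788 UMIs in WT mast cell-like cells (6017 CPM, rank 21) and 176 UMIs in KO (15258 CPM, rank 4). It was the most even of the 8 from cell to cell in WT, running from 14.5 over a median of 54.9 to 158 UMIs per 10000. The KO cells had 101, 54.9 and 225 UMIs per 10000, and the last, a cell of 6222 UMIs, was above all 92 WT cells. KO exceeded WT by 1.34 on the log2 scale (1.11 to 1.57), and 140 of the 176 KO UMIs came from that 1 cell. Without it the ratio was 0.17 (-0.35 to 0.65). Hdc was weakly tied to the proteases, with a Spearman correlation of 0.23 to Cma1 and 0.08 to Tpsb2.

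Srgn encodes serglycin, the core protein whose glycosaminoglycan chains hold the proteases in the granule. It had 1037 UMIs in WT mast cell-like cells (3490 CPM) and 39 UMIs in KO (3381 CPM), with a log2 ratio of -0.05 (-0.55 to 0.42). It was seen in 91 of 92 WT and 3 of 3 KO cells, with a WT median of 33.6 and a highest value of 127 UMIs per 10000. The KO cells had 40.3, 28.8 and 35.4 UMIs per 10000, close to that median. Srgn followed Cma1 with a Spearman correlation of 0.63 and Tpsb2 with 0.56.

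Serpinb1a encodes an intracellular inhibitor of chymotrypsin-like and elastase-like proteases, such as those stored in leukocyte granules. It had 1007 UMIs in WT mast cell-like cells (3389 CPM) and 36 UMIs in KO (3121 CPM), with a log2 ratio of -0.12 (-0.64 to 0.36). It was seen in 86 of 92 WT cells and in 3 of 3 KO cells, and ran from 0 over a median of 33.5 to 119 UMIs per 10000. The KO cells had 26.9, 36.6 and 28.9 UMIs per 10000. Like Srgn it followed Cma1, with a Spearman correlation of 0.62, and its correlation to Hdc, 0.43, was the highest Hdc had with the other 7. Its close copies Serpinb1b and Serpinb1c were under the UMI minimum, and reads matching several copies may have been lost.

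**Figure D2:**
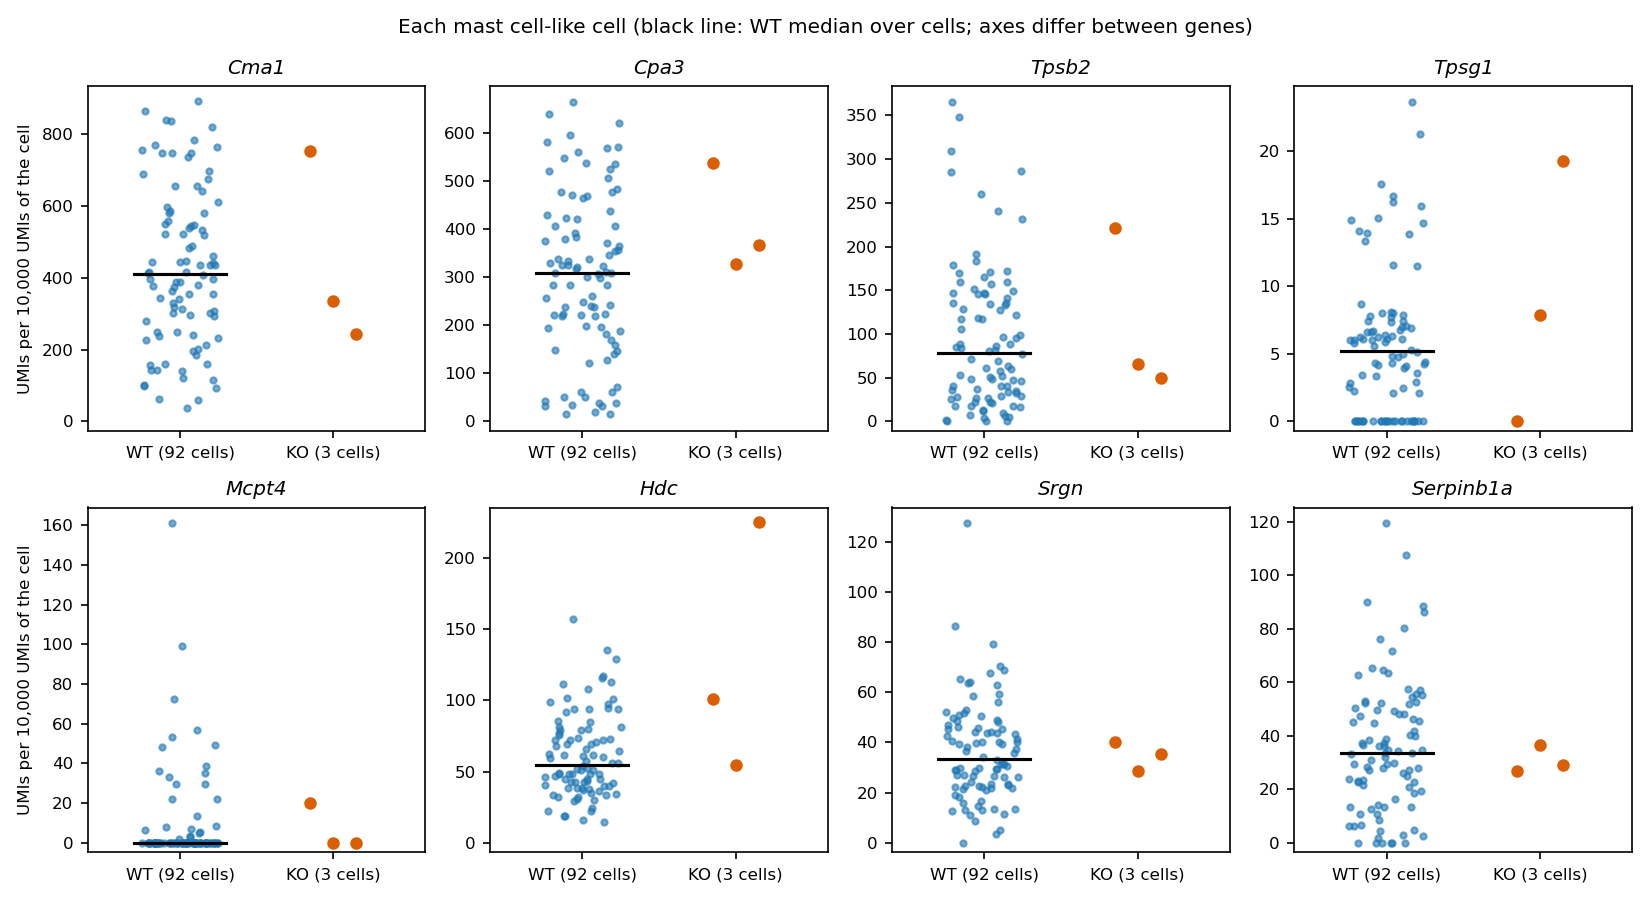
UMIs per 10000 of each of the 8 genes in single mast cell-like cells, 92 from WT and 3 from KO, 1 point per cell. Cma1 and Cpa3 were in every cell, Mcpt4 was in 25 of 92 WT cells, and the KO cell with 225 UMIs of Hdc per 10000 lay above all WT cells.

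The mix of the 8 transcripts differed between the libraries for several genes. Cma1 made up 42.8% of the UMIs of the 8 genes in WT mast cell-like cells and 33.1% in KO. Cpa3 made up 31.5% and 36.7%, and Tpsb2 9.69% and 7.52%. Hdc made up 6.84% in WT and 14.9% in KO. The intervals of these 4 genes did not overlap between WT and KO. Without the deepest KO cell, the other 2 cells held 36 Hdc UMIs of 580, or 6.21% (4.38 to 8.49%), and Cma1 made up 41.4%, Cpa3 35.3% and Tpsb2 10.0% there, each with a wider interval that overlaps that of WT. All 4 shares thus lay closer to WT without that cell, and that of Cpa3 moved only from 36.7% to 35.3%, against 31.5% in WT.

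Mast cell-like cells that expressed cell cycle genes had less of most of the 8 transcripts. In WT, 16 of 92 mast cell-like cells, or 17.4%, had at least 5 UMIs from 10 cell cycle genes, against 26.9% of remaining cells. At 2000 UMIs per cell the shares were 9.09% and 16.4%, and in KO it was 0 of 3 mast cell-like cells. The 16 cells had 28390 CPM of Cma1 and the other 76 had 41002 CPM, a log2 ratio of -0.53 (-0.60 to -0.46). Mcpt4 differed most, at 164 against 706 CPM, a log2 ratio of -2.10 (-3.04 to -1.29) that rests on 13 UMIs. Serpinb1a (-0.09) and Tpsg1 (0.15) had intervals that include 0. The 16 cells were deeper, with a median of 4627.5 against 2507 UMIs, and the part of depth was not tested.

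The chymase genes lie side by side on chromosome 14 and the tryptase genes on chromosome 17, and within each cluster the counts were very unequal. On GRCm38 (GENCODE M21) the chymase cluster spans chr14:55941451-56262260, 320.8 kb with 15 protein-coding genes, and has Cma1 at chr14:55941451-55944675 and Mcpt4 at chr14:56059629-56062313, both on the minus strand. Besides these 2, the cluster gave few UMIs in the 92 WT mast cell-like cells, with 8 relatives on the family list and 5 further granzyme genes that were looked at afterwards and had 0 UMIs each. The mucosal chymase gene Mcpt2 had 55 UMIs in 5 cells, 44 of them in 1 cell, and Mcpt1 had 21 UMIs, all in 1 cell that also held Mcpt2 and Mcpt4. Mcpt8, known from basophils, had 21 UMIs in 10 cells, Cma2 had 11 in 9 cells, and the neutrophil protease gene Ctsg had 11 in 8 cells. The granzyme gene Gzmb had 9 UMIs in 2 cells, Mcpt9 had 1 UMI and Gzmc had 0. In remaining cells of WT, Mcpt1 had 1 UMI, Mcpt2 had 0 and Mcpt8 had 2. In the 3 KO cells all 8 relatives had 0 UMIs. Of the Mcpt2 UMIs, 45 of 55 were in cells with Mcpt4, but 44 of them were in that 1 cell. Only 2 of the 5 cells with Mcpt2 had Mcpt4, against 25 of all 92. The cell with Mcpt1 had 10 Cma1 UMIs, or 38.1 per 10000, the lowest level of the 92 cells.

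The tryptase cluster spans chr17:25298394-25374442, 76.0 kb with 6 protein-coding genes. Tpsb2 (chr17:25366305-25369098) and Tpsg1 (chr17:25369273-25374442) lie on the plus strand with 174 bases between them. Whether UMIs of the upstream gene were counted to the other was not tested. Tpsab1, the other granule tryptase, had 26 UMIs in 11 WT mast cell-like cells, and Prss34, known from basophils and mast cells, had 90 UMIs in 23 cells. Prss28 had 1 UMI and Prss29 had 0. In remaining cells of WT, Tpsab1 had 2 UMIs and Prss34 had 5. In the 3 KO cells Tpsab1 had 0 UMIs and Prss34 had 2. The other members lie on other chromosomes: Cpa3 at chr3:20215620-20242181, Hdc at chr2:126593667-126619299, Srgn at chr10:62493833-62527451 and Serpinb1a at chr13:32842092-32851185, all on the minus strand.

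**Figure D3:**
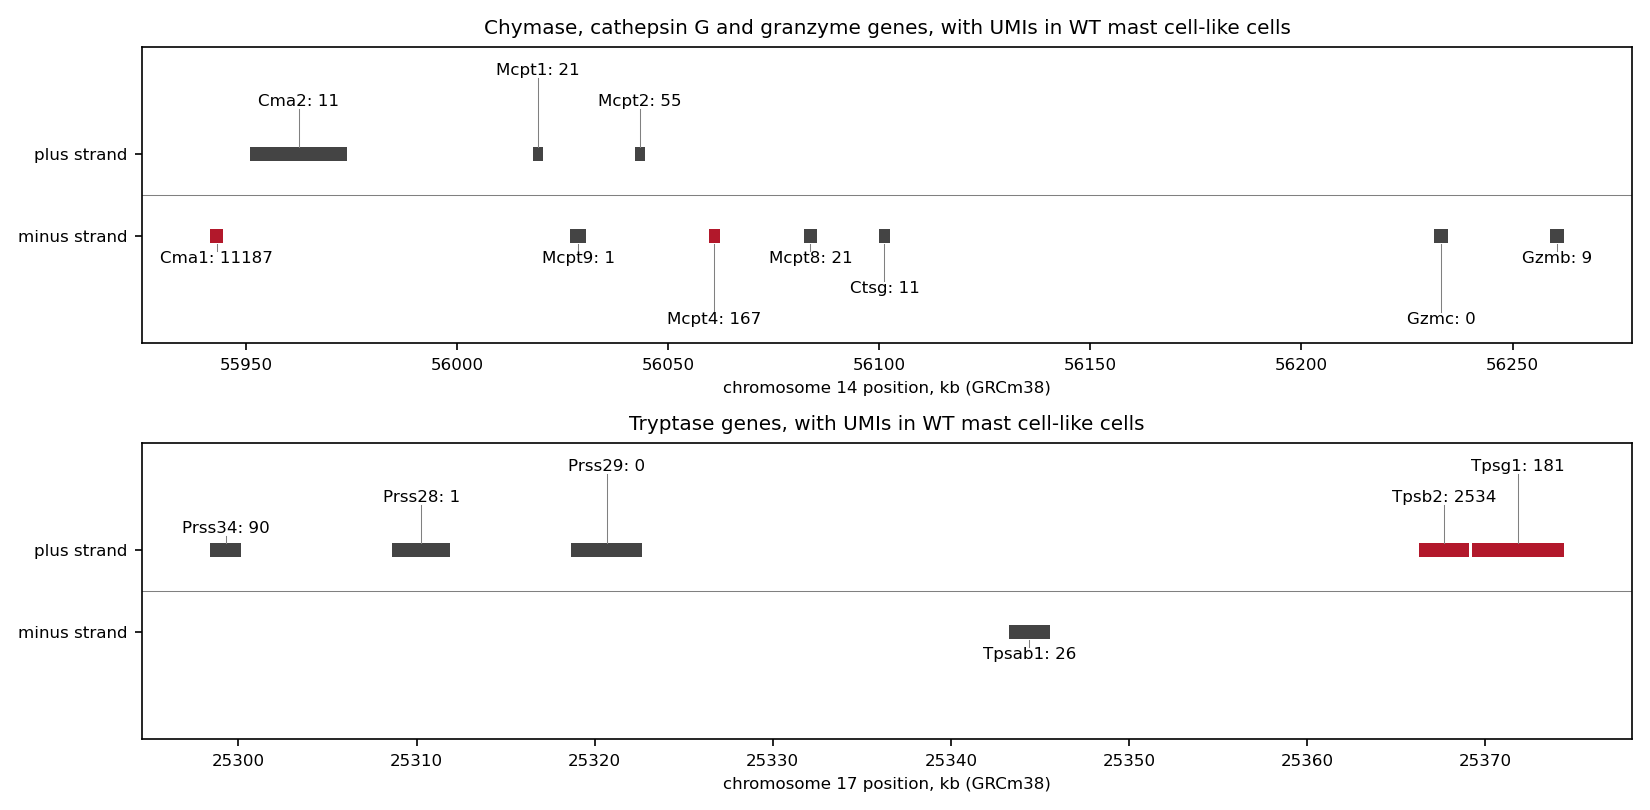
Maps of the chymase cluster on chromosome 14 and the tryptase cluster on chromosome 17 (position on GRCm38, genes drawn to scale by strand, Cma1, Mcpt4, Tpsb2 and Tpsg1 in red, 5 granzyme genes with 0 UMIs not drawn), with UMIs of each gene in the 92 WT mast cell-like cells. Cma1 with 11187 UMIs and Tpsb2 with 2534 UMIs stand at or near the ends of clusters whose other genes had 181 UMIs or fewer.

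The sequences ahead of the gene starts are shown because the 8 transcripts were abundant in the same cells, together with Gata2, whose protein binds GATA motifs. RefSeq windows on GRCm38.p6 were available for 6 of the 8 genes, and Tpsb2 and Serpinb1a had none. On both strands of the 250 bases ahead of each start, GATAA was searched first, and 22.6% of the 32851 windows in the table held it. CATGTG, an E-box form known for MITF, was in 12.3% of these windows. The symmetric E-box CACGTG was in 6.02%. GATAA occurred in the windows nearest the gene start of Cma1 (chr14:55944676-55944925, minus strand), Cpa3 (chr3:20242182-20242431, minus strand), Tpsg1 (chr17:25369023-25369272, plus strand) and Mcpt4 (chr14:56062311-56062560, minus strand). These are printed from 5′ to 3′ with the match in capitals, which reads in reverse complement for Cma1. Hdc and Srgn had no GATAA in their windows, and neither E-box form was in any window of the 6 genes. A match is a run of letters and not evidence of binding.
Cma1: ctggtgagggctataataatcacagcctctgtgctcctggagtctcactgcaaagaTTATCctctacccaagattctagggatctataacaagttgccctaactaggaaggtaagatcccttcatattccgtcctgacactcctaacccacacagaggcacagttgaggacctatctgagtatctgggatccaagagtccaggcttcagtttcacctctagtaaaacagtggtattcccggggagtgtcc
Cpa3: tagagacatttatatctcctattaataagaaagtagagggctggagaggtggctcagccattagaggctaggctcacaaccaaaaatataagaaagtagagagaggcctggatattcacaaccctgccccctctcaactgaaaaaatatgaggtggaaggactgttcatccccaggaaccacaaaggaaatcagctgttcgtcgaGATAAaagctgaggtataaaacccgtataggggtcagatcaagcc
Tpsg1: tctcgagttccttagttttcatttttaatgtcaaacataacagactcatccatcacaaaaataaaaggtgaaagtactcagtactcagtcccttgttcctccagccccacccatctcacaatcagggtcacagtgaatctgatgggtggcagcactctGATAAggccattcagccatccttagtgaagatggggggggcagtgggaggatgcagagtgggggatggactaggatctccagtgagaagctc
Mcpt4: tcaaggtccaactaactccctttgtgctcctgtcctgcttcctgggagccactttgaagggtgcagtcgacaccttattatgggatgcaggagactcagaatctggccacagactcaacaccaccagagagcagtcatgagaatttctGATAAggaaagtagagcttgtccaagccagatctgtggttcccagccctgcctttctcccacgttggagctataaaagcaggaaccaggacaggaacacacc

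Genes of the machinery around the granule were read from lists, with the 8 genes left out, their chymase and tryptase relatives included, and the cell cycle and basophil lists counted apart. Of 110 such genes 71 could be compared between mast cell-like and remaining cells of WT, with 24 at least 4-fold higher and 2 at least 4-fold lower. Over all genes the shares in this comparison were 3.28% higher and 8.39% lower. Against other myeloid cells 57 could be compared, with 17 higher and 13 lower, where the shares over all genes were 3.08% and 11.5%. The median log2 ratio of the listed genes was 0.87 against remaining cells and -0.34 against other myeloid cells, and that of all genes was -0.25 in both. Many of the 24 reached the minimum mainly through their UMIs in mast cell-like cells, and some, such as Gata2, Il1rl1, Ms4a2 and Adora3, are among the markers that named the class. The counts of higher genes here and below are therefore descriptions, and nothing is read from them. Counts of lower genes below stand beside the same shares of all genes, 8.39% against remaining and 11.5% against other myeloid cells, as descriptions too.

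Of 9 genes of amine synthesis and storage besides Hdc, 4 had enough UMIs to be compared with remaining cells: Maob, which breaks down amines, with 384 CPM against 5.23, the serotonin transporter Slc6a4 with 141 against 0.169, Tph1, the first enzyme of serotonin synthesis, with 63.9 against 0.506, and Ddc, which completes it, with 50.5 against 1.35. Slc18a2, which loads amines into granules, had 18 UMIs in WT mast cell-like cells, under the minimum for the comparison. The histamine-degrading enzyme genes Hnmt and Aoc1, named after their values were seen, had 0 UMIs there. Slc6a4, Tph1 and Ddc reached the minimum mainly through their UMIs in mast cell-like cells, so the number of higher genes in this list is not read as a result.

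Of 17 genes for the glycosaminoglycan chains carried by serglycin, 2 were higher and 1 lower, against 3.28% and 8.39% of all genes, so the count of lower genes is no result about the list. The higher ones were Ndst2, the sulfotransferase known for mast cell heparin, with 87.5 against 4.38 CPM, and Hs3st1, another heparan sulfotransferase, with 303 against 2.70 CPM. Hs2st1 was within the fold, at 74.0 and 61.5 CPM, and Extl3 was lower, with 1 UMI in mast cell-like cells. In the 3 KO cells Hs3st1 had 4 UMIs and Ndst2 had 0.

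Among 6 genes of protease processing with enough UMIs, Ctsc, whose product cathepsin C activates the granule serine proteases, was higher in mast cell-like than remaining cells (417 against 54.3 CPM) and Ctsl was lower. Against other myeloid cells Ctsc was within the fold (529 CPM there), and Ctsl, Ctsb, Ctss and Lgmn were lower among 7 genes. In that comparison 11.5% of all genes were lower. None of 3 further inhibitor genes passed the fold against remaining cells. Against other myeloid cells 2 of 4 (Serpinb6a and Cst3) were lower, beside the same 11.5% of all genes. Against remaining cells they stood with Cst3 at 357 against 315 CPM, Cstb at 286 against 233 CPM and Serpinb6a at 20.2 against 43.3 CPM. Serpinb1a, at 3389 CPM, was far above each of these.

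The granule membrane protein gene Cd63 was high in mast cell-like and remaining cells, at 2026 and 1422 CPM, and lower in other myeloid cells, at 490 CPM. Lamp1 was at 148 and 255 CPM, and at 795 CPM in other myeloid cells. Of 9 exocytosis genes only Rab27b, which guides granules to the membrane, passed the fold, at 377 against 2.02 CPM. Vamp8 (303 against 132 CPM) and Snap23 (80.8 against 36.8 CPM) did not. Against other myeloid cells Rab27b was higher and Vamp3 lower among 7 genes. Of 7 receptor genes 5 were higher, of which Il1rl1, Ms4a2 and Adora3 had named the class. The IL-33 receptor Il1rl1 was at 485 against 0.674 CPM, and Fcer1g, the signalling chain shared by Fc receptors, was at 2921 against 22.8 CPM. Fcer1g had the smallest ratio of the 5 and was not higher than in other myeloid cells, where it had 3221 CPM. Against those cells 4 of 8 were higher (Kit, Ms4a2, Il1rl1 and Adora3), all of them markers that named the class, and 1 (C5ar1) was lower. Kit, at 390 against 135 CPM, was not among the 5 against remaining cells, and melanoblasts are also known for Kit. Of 3 lipid mediator genes, the prostaglandin D2 synthase gene Hpgds (178 against 4.05 CPM) and Alox5ap (74.0 against 2.87 CPM) were higher than in remaining cells. Against other myeloid cells none of 5 was higher and 2 were lower, Alox5ap (629 CPM there) and Ltc4s, while Hpgds was alike at 178 CPM in each. Alox5 had 4 UMIs.

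Of 7 transcription factor genes Gata2 (491 against 1.18 CPM), itself a marker that named the class, and Spi1 (47.1 against 1.85 CPM) were higher than in remaining cells, and Tal1 had 12 UMIs. Against other myeloid cells 4 could be compared, and Gata2 was higher while Spi1 (382 CPM there) and Runx1 were lower. Of the progenitor list 2 genes could be compared and neither passed the fold: Cd34 had 26.9 against 18.7 CPM, Itgb7 had 14 UMIs and Flt3 had 0. None of 10 cell cycle genes passed it, with Ube2c at 178 against 263 CPM, Top2a at 131 against 211 CPM and Ccnb1 at 108 against 104 CPM. Of the basophil list, Il4 had 316 against 0.169 CPM and Cd200r3 427 against 0.843 CPM, with Mcpt8 and Prss34 as given above. These 4 reached the minimum mainly through their UMIs in mast cell-like cells, so their number is not read as a result. The basophil receptor gene Ccr3 was under the minimum, and mast cells can also express several of this list.

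Ordered by the ratio of WT mast cell-like to remaining cells, 6 of the 8 genes were among the first 10 of the 416 genes that reached 100 UMIs in this class. That filter used the class where the 8 genes are high and left out genes with fewer UMIs. One gene left out was Il4, with 94 UMIs and a log2 ratio of 10.87. The place of the 8 genes in this order is therefore a description, and nothing is read from it. The order was Smpx, Hdc, Tpsg1, Rgs18, Il1rl1, Cpa3, Srgn, Cma1, Cd200r3 and Tpsb2. The log2 ratio was 9.95 (9.48 to 10.47) for Hdc, 9.82 (8.44 to 11.71) for Tpsg1, 9.48 (9.29 to 9.67) for Cpa3, 9.38 (8.87 to 9.95) for Srgn, 9.34 (9.19 to 9.50) for Cma1 and 8.98 (8.69 to 9.29) for Tpsb2. Mcpt4 followed at 8.70 (7.69 to 9.94) and Serpinb1a at 8.11 (7.76 to 8.47), and most neighbours in this order had overlapping intervals. The genes whose levels over the 21 WT clusters were most like the mean of the 8 were Il1rl1 (Pearson r 0.97), Cyp11a1 (0.96), Smpx (0.96), Cd200r3 (0.95) and Gata2 (0.92), out of 6194 genes read. The 21 clusters share 1 library, and the mast cell-like cells form 1 of them. A gene needed at least 100 UMIs in WT to be read. The genes named reached this mainly through mast cell-like cells, with 144 of 150 UMIs there for Il1rl1 and 222 of 236 for Cyp11a1. Il1rl1, Cd200r3 and Gata2 are also markers that named the class. This list is therefore a description too, and nothing is read from it.

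Among other myeloid cells, Srgn was the member that was clearly present. Monocyte or dendritic cell-like cells had 136 Srgn UMIs in WT (599 CPM, 38 of 50 cells) and 85 in KO (773 CPM, 16 of 17 cells). In neutrophil-like cells the level was 257 (WT) and 342 CPM (KO), and in macrophage-like cells 91.4 and 63.4 CPM. Remaining cells had 31 UMIs in WT and 14 in KO, with a UMI in 2.39% and 1.53% of cells, so the share in other myeloid cells of 54.9% in WT and 59.5% in KO was above that level. At 2000 UMIs per cell the shares in WT were 27.0% in other myeloid and 1.22% in remaining cells. Mast cell-like cells were still higher than other myeloid cells in WT by 3.91 on the log2 scale (3.68 to 4.13), the smallest ratio of the 8. Serglycin is known as the granule proteoglycan of many blood cells. Pooled over other myeloid cells KO stood above WT by 0.60 on the log2 scale (0.25 to 0.94), but macrophage-like cells, where Srgn was low, were 96 of 153 of these cells in WT and 18 of 42 in KO, and the part of this mix was not tested.

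Serpinb1a in other myeloid cells was concentrated in few cells. Neutrophil-like cells had 7 UMIs in 5 of 7 WT cells (450 CPM) and 33 UMIs in 2 of 7 KO cells (706 CPM), 17 and 16 in each. Monocyte or dendritic cell-like cells had 10 UMIs in WT and 8 in KO, and macrophage-like cells had 7 and 0. Summed over other myeloid cells it was 28.8 CPM (WT) and 130 CPM (KO), a log2 ratio of 2.18 (1.42 to 2.97) that rests on those 2 KO cells for 33 of 41 UMIs. Without them KO had 27.9 CPM and the ratio was -0.05 (-1.41 to 1.15). In remaining cells the same ratio was negative, -1.52 (-2.32 to -0.79), and -0.08 (-0.60 to 0.44) when each library was clustered alone. In that setting the 3 KO mast cells, with 36 Serpinb1a UMIs, counted as remaining cells, which otherwise had 20 in KO.

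Hdc was also found outside mast cells in single myeloid cells. In WT, monocyte or dendritic cell-like cells had 20 UMIs in 6 of 50 cells, 12 of them in 1 cell, and in KO 8 UMIs in 2 of 17 cells, 7 of them in 1 cell. Neutrophil-like cells had 1 UMI in WT and 6 UMIs in 3 of 7 cells in KO. The level in other myeloid cells, 36.0 CPM (WT) and 47.7 CPM (KO), was above the 6.07 and 2.57 CPM of remaining cells, with log2 ratios of 2.57 (1.82 to 3.31) and 4.22 (3.02 to 5.44).

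The KO cell with 7 Hdc UMIs held UMIs of 4 of the 5 basophil list genes and was singled out after its values were seen. Of its 5635 UMIs, 24 were Mcpt8, 19 Srgn, 5 Cd200r3, 5 Ctsg, 4 Cpa3, 2 Fcer1a, 2 Gata2, 2 Il4, 2 Prss34 and 1 Adora3. Cma1, Tpsb2, Mcpt4 and the basophil receptor gene Ccr3 had 0. Mcpt8, Prss34, Il4 and Cd200r3 also had UMIs in WT mast cell-like cells. Of the mast cell markers, Cd200r3, Fcer1a, Gata2 and Adora3 had UMIs in this KO cell, while Kit, Ms4a2, Il1rl1, Rgs13, Slc18a2 and Mrgprb1 had 0. The cell was thus the other myeloid cell taken as a mast cell by its markers. It held every Mcpt8 UMI of the KO other myeloid cells. It also held 4 of the 7 Cpa3 UMIs of that class in KO.

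The strongly expressed proteases showed no such excess in other myeloid cells of WT. Cma1 had 57 UMIs there (68.4 CPM), Cpa3 36 (43.2 CPM) and Tpsb2 12 (14.4 CPM), and the log2 ratios to remaining cells were 0.24 (-0.19 to 0.65), 0.15 (-0.40 to 0.66) and -0.23 (-1.23 to 0.64). These levels were close to those of remaining cells. Mcpt4 had 4 UMIs, all in macrophage-like cells, with an interval of its ratio from -0.35 to 3.73, and Tpsg1 had 0. In KO the log2 ratio of other myeloid to remaining cells was 0.93 (-0.77 to 2.27) for Cma1 and 1.61 (0.19 to 2.81) for Cpa3, which had 7 UMIs there.

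The 8 transcripts were also counted in remaining cells, which are not known to make mast cell proteases. In WT, 22.4% of remaining cells had a Cma1 UMI, and in KO 4.98%. At 2000 UMIs per cell the shares were 11.3% and 1.97%. The level of Cma1 was alike across the large WT classes, at 53.6 CPM in melanoblast-like, 66.9 in glial-like and 53.7 in mesenchymal-like cells, and their intervals overlapped. In KO all 3 classes had less, with 8.23 CPM in melanoblast-like and 8.37 in glial-like cells. Cpa3 had 231 UMIs in remaining cells of WT (38.9 CPM) and 34 in KO (7.28 CPM), Tpsb2 100 (16.9 CPM) and 7, and Hdc 36 (6.07 CPM) and 12 (2.57 CPM).

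In remaining cells the level of these transcripts was lower in the KO library, which had few mast cell-like cells. In other myeloid cells Cma1 was also lower in KO, with a log2 ratio of KO to WT of -2.10 (-3.78 to -0.80), while the ratio for the sum was 0.43 (0.16 to 0.69), with 111 of the 181 KO UMIs from Srgn and 41 from Serpinb1a. Of the 8 genes 6 had enough UMIs in remaining cells, and 5 of them (Cma1, Cpa3, Tpsb2, Hdc and Serpinb1a) were at least 2-fold lower in KO, where 2.36% of 11816 genes were lower and 8.35% higher by that much. The median log2 ratio of the 6 was -1.97, and that of all genes was 0.01. Their log2 ratios were -2.80 (-3.31 to -2.32) for Cma1, -2.42 (-2.98 to -1.90) for Cpa3, -3.49 (-4.84 to -2.40) for Tpsb2, -1.24 (-2.32 to -0.26) for Hdc and -1.52 for Serpinb1a. The sixth gene, Srgn, had -0.80 with an interval from -1.83 to 0.15. Tpsg1 had 4 UMIs in WT and 2 in KO, and Mcpt4 had 8 in WT and 0 in KO, which allows up to 0.642 CPM. For the sum of the 8 genes the log2 ratio was -2.35 (-2.63 to -2.08). When each library was clustered alone, the 3 KO mast cells fell among the remaining cells and the same ratio was 1.02, so the direction depends on where these 3 cells are placed. Of the 110 listed genes of the granule machinery, 65 could be compared, with 8 at least 2-fold higher and 1 (Kit) lower. Melanoblast-like cells were 536 of the 1295 remaining cells in WT and 139 of the 783 in KO. Within melanoblast-like cells Kit was not lower in KO, at 313 CPM against 277 CPM in WT. The part of this mix of classes in the counts was not tested.

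Relative to mast cell-like cells of the same library, the 8 transcripts were spread unevenly over remaining cells. For every 100 UMIs in mast cell-like cells, remaining cells of WT held 3.08 UMIs of Cma1 (2.75 to 3.42), 2.80 of Cpa3, 3.95 of Tpsb2, 2.21 of Tpsg1, 4.79 of Mcpt4, 2.01 of Hdc and 2.99 of Srgn. Serpinb1a stood above Cma1, Cpa3, Tpsb2, Hdc and Srgn, at 7.25 (5.64 to 9.20), without overlap of the intervals. Its 73 UMIs there included 36 in melanoblast-like and 19 in mesenchymal-like cells. In KO, where mast cell-like cells were 3, the values were 9.97 for Cma1, 7.83 for Cpa3, 7.87 for Tpsb2 and 6.82 for Hdc. Srgn had 35.9 (18.0 to 67.6) and Serpinb1a 55.6 (30.5 to 98.6), above Cma1, Cpa3 and Tpsb2 without overlap of the intervals. Of 20 Serpinb1a UMIs in remaining KO cells 13 were in mesenchymal-like cells.

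**Figure D4:**
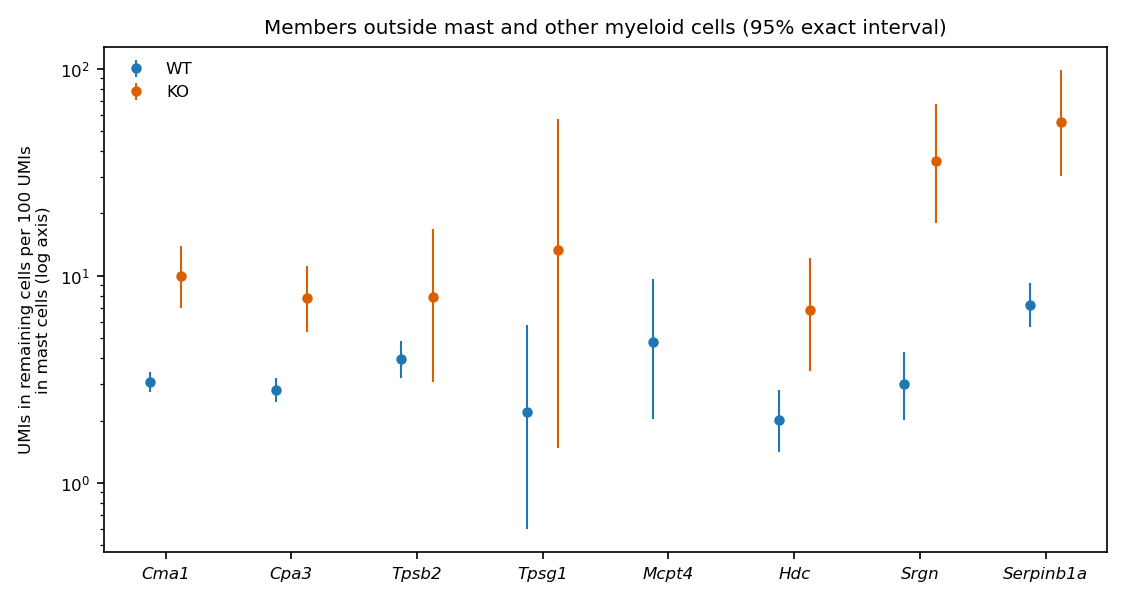
UMIs of each of the 8 genes in remaining cells per 100 UMIs in mast cell-like cells (log axis), for WT and KO, with bars for 95% intervals. Mcpt4 in KO is not drawn because it had 0 UMIs, and Serpinb1a is highest in both libraries, at 7.25 in WT and 55.6 in KO.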

How the data were processed

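The deposited values are UMI counts per gene and cell barcode for 1 WT and 1 KO library. By the submitters' processing notes the authors made them with Cell Ranger 2.2.0 on mm10 and no normalization; the annotation release was not stated. Barcodes with fewer than 100 genes, over 40000 UMIs or over 10% mitochondrial UMIs were removed (6 WT, 18 KO). Counts of both libraries were scaled to 10000, log-transformed and clustered together with scanpy 1.11.5 in Python 3.11.15 (1984 variable genes, 30 components, 15 neighbours, Leiden resolution 1, seed 0). The 8 genes, their families, sex-linked genes, Hira and tdTomSeq were left out of the variable genes. Clusters were named by the class whose markers were raised in the highest proportion (at least 3 genes), and ties went by the mean log2 ratio over the markers, as for the monocyte or dendritic cell-like cluster, where 6 of 10 macrophage markers were also raised. Doublets were kept, since Scrublet called 9 WT and 6 KO cells and no mast cell-like cell. The libraries shared 0 barcodes. Levels are sums over cells, with Poisson, Clopper-Pearson or conditional binomial 95% intervals (scipy 1.17.1), and a count of 0 allows 3 counts. A gene was compared with at least 20 UMIs in all, and passed at 4-fold between classes or 2-fold between libraries. Thinned shares use 2000 UMIs per cell. Named genes were the 8, their families, the 3 most abundant of each list in WT mast cells, 5 by likeness and 10 by ratio. The members and lists were chosen with earlier results of these data known. Coordinates are GENCODE M21 on GRCm38 and promoters RefSeq GRCm38.p6. Alternatives changed the resolution, gene minimum, held-out genes, joint clustering, the choice of mast cells, doublets, thinning, shared barcodes and the mean.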

Additional observations from a re-analysis of the deposited data

Results flagged for a closer look

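Serpinb1a differed between KO and WT in opposite directions in different cells of the same libraries. KO over WT gave a log2 ratio of 2.18 in other myeloid cells and -1.52 in remaining cells. Of the 41 KO UMIs in other myeloid cells 33 were in 2 neutrophil-like cells, and without these cells the ratio was -0.05. When each library was clustered alone, the 3 KO mast cells, with 36 Serpinb1a UMIs, counted as remaining cells, and the ratio there was -0.08. The difference between the ratios was not tested.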

How the results depend on the processing

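Of 219 values for single genes, 208 kept their sign and stayed within their counting interval, as did 76 of 89 summed values and shares. Of 54 counts past a fold, 51 stayed within 1.5 times. The count alternatives, and leaving out the deepest KO mast cell, were chosen after seeing the data. When each library was clustered alone, the 3 KO mast cells joined a remaining class: the KO mast share was 0%, the summed level in remaining KO cells 286 CPM against 27.4, its log2 ratio of KO to WT 1.02 against -2.35, and 0 of the 8 genes were at least 2-fold lower against 5. The same move turned the ratios of Cma1 (0.65), Cpa3 (1.38), Tpsb2 (0.29), Tpsg1 (2.43), Hdc (2.78) and Srgn (1.21). Thinning to 2000 UMIs gave a WT mast share of 4.59%, a summed mast level of 91508 (WT) and 91250 CPM (KO), a Tpsg1 ratio of KO to WT in remaining cells of 0.69, and 221 and 78 genes past 4-fold against remaining and other myeloid cells in place of 346 and 157, with fewer UMIs and cells left. Mast cells taken per cell by markers gave 86333 CPM in WT (77 cells) and 37738 CPM in KO (2 cells, 1 of them from other myeloid cells). That other myeloid cell was the one with 24 Mcpt8 UMIs and 0 UMIs of Cma1 and Tpsb2. Without the deepest KO mast cell the summed KO level was 109166 CPM. The mean over cells gave 97460 CPM in WT and 117477 CPM in KO, and summed log2 ratios of 9.45 against 9.30 to remaining and 7.52 against 7.68 to other myeloid cells; the cause was not tested. Leaving out shared barcodes changed nothing, since there were 0, and its values are included in the counts above. Depth limits Mcpt4 and Tpsg1 outside mast cells, and 3 KO mast cells limit every KO level in that class.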
